A study of Mus musculus with 47 samples.

Results

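The genes described here are 9 mouse genes through which the small intestine takes up dietary fat and exports it as chylomicrons. They were chosen by symbol from the authors' count table and make up 9 of its 24062 gene symbols. Apob encodes the structural protein of the chylomicron, and Mttp encodes the transfer protein that loads lipid onto it. Apoa1, Apoa4 and Apoc3 encode smaller apolipoproteins carried on the particle. Dgat1 encodes an enzyme that completes triglyceride synthesis. Fabp1 and Fabp2 encode cytosolic fatty acid binding proteins, the liver and the intestinal form, and Cd36 encodes a fatty acid receptor of the cell surface. All 9 had enough counts to be tested in tissue, in organoids and in both together.

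The study sequenced ribosome-depleted RNA from intestinal tissue and intestinal organoids of mice labelled 15 to 19 weeks old. Adenomas and uninvolved mucosa came from APC min mice, which carry a truncating allele of the Wnt pathway inhibitor Apc. These 2 tissues are called adenoma and Min mucosa below. Wild-type mucosa came from mice without that allele. PWD is the inbred strain PWD/Ph, a different mouse subspecies from C57BL/6 (B6), and B6xPWD is the F1 hybrid of B6 and PWD. C5 is the consomic strain with PWD/Ph chromosome 5 in an otherwise C57BL/6 genome, and C5F1 is the F1 hybrid of B6 and C5. B6xPWD, C5F1, C5 and B6 each have adenoma, Min mucosa and wild-type mucosa, PWD has wild-type mucosa, and each of these 13 groups holds 3 libraries. The organoids were C5 and B6 cultures, all labelled APC min, with 5-aza-cytidine (AZA) or as untreated control, in 4 groups of 2 libraries. AZA is a nucleoside drug that blocks maintenance of DNA methylation. The labels give neither the stretch of intestine sampled, nor the sex, nor whether replicates are separate animals or cultures. A p-value here therefore weighs a difference against the spread between these libraries only, which may not cover the spread between animals.

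After a meal, enterocytes absorb fatty acids and monoacylglycerol and rebuild them into triglyceride in the endoplasmic reticulum. Mttp adds this triglyceride to newly made Apob, and the particle leaves through the Golgi into the lymph. Fat absorption is strongest in the upper small intestine, so the level of these genes can differ with position along the gut.

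Apoa1, Apoc3 and Apoa4 lie together on chromosome 9 (mm10), Apoa1 at chr9:46228580-46230466, Apoc3 at chr9:46232933-46235636 on the opposite strand and Apoa4 at chr9:46240696-46243459. Apob is at chr12:7977648-8016835, Mttp at chr3:138089854-138144968, Fabp2 at chr3:122895072-122899506, Fabp1 at chr6:71199827-71205023 and Dgat1 at chr15:76502015-76511953. Cd36, at chr5:17781690-17888801, is the member on chromosome 5, which C5 mice carry from PWD. Trmt10a overlaps Mttp on the opposite strand and 4933405D12Rik overlaps Fabp2 there. With no strand setting stated, reads of such pairs cannot be told apart. Trmt10a held 1265 counts in all libraries together against 267466 for Mttp, and 4933405D12Rik held 22 against 827060 for Fabp2.

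Promoters of 4 members are shown because CG pairs are the main sites of DNA methylation in mammals and these promoters differ in how many they hold. Each runs from 250 bases before to 50 bases after the start of transcription given by RefSeq, on the plus strand of GRCm38.p6, with CG pairs in capitals. RefSeq entries matched 7 of the 9 members, Apob, Apoa1, Apoa4, Mttp, Fabp1, Fabp2 and Cd36, and none was used for Apoc3 and Dgat1. They stand at chr9:46228380-46228679 (Apoa1), chr9:46240594-46240893 (Apoa4), chr12:7977427-7977726 (Apob) and chr6:71199629-71199928 (Fabp1).
Apoa1: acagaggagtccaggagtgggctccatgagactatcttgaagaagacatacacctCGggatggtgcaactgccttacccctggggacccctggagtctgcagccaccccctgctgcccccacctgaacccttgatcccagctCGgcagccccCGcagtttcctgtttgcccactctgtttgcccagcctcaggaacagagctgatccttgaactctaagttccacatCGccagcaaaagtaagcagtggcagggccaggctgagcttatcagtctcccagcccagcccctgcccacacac
Apoa4: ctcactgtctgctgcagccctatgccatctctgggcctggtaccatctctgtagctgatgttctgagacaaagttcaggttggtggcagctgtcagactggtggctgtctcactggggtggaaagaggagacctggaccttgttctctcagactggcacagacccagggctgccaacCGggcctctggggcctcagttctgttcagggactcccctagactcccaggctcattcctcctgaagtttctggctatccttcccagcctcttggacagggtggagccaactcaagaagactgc
Apob: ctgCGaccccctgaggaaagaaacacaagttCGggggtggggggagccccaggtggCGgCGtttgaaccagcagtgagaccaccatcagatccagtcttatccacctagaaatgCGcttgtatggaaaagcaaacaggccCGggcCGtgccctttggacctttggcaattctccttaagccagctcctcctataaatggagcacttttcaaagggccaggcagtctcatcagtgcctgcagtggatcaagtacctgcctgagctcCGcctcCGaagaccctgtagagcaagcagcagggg
Fabp1: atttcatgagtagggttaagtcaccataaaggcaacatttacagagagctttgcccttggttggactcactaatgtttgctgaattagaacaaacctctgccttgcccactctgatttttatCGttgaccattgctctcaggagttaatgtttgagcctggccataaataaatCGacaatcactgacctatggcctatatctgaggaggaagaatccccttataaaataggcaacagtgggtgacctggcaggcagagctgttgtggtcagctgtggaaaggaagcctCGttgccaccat
The Apob promoter has 9 CG pairs, Apoa1 has 4, Fabp1 has 3 and Apoa4 has 1. The median over 32851 RefSeq promoters of this length is 7, and 5.43% of them have fewer than the Apoa4 promoter. Fabp2 and Cd36 have 3 each, and the Mttp entry has 27. The Cd36 entry (chr5:17835847-17836146) and the Mttp entry (chr3:138143369-138143668) lie wholly inside the gene spans given above. Which start of transcription these tissues use was not tested. Motifs were searched on both strands in the 7 member promoters, with no mismatch. CAAAGTTCA, a form of the HNF4 motif, is in the Apoa4 promoter, starting 182 bases before the start of transcription, and in 0.390% of all promoters. GTTAAT, part of the HNF1 motif, is in the Fabp1 promoter, 107 bases before the start, and in 7.10% of all promoters. TGATAA, a motif of the Gata factors, is on the minus strand of the Apoa1 promoter, 15 bases after the start, and in 9.05% of all promoters. CAATAAA, a CDX motif, is on the minus strand of the Fabp2 promoter and in 4.60% of all promoters. Neither CAAAGTCCA, another HNF4 form found in 0.475% of all promoters, nor AGATAA, another motif of the Gata factors found in 11.2%, is in a member promoter. These matches describe the letters and not binding.

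Sequencing depth, in units of 1e6 counts on genes, was 2.73 to 20.1 in tissue libraries (median 5.83) and 4.39 to 8.37 in organoid libraries (median 6.39). Rn45s, the precursor of ribosomal RNA, made up 16.4 to 72.7% of the tissue depth and 0.760 to 1.61% of the organoid depth. Levels are TMM-normalised counts per 1e6 counts of a library (CPM), and changes are on the log2 scale with their standard error. A gene passed the test, or was called, at an adjusted p under 0.05, by edgeR's quasi-likelihood test with Benjamini-Hochberg adjustment over all genes tested.

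Replicate tissue libraries of the same group differed widely in Fabp1, Apoa4 and Apoc3. The SD between libraries within groups was 2.01 log2 units for Fabp1, 1.80 for Apoa4 and 1.20 for Apoc3, larger than for 99.9%, 99.8% and 99.0% of tested genes. It was 0.98 for Cd36, 0.75 for Fabp2, 0.57 for Apoa1, 0.54 for Mttp and 0.46 for Apob. Dgat1 was the steadiest member at 0.38, larger than for 53.8% of tested genes. In PWD wild-type mucosa, Fabp1 had 721, 1014 and 4.86 CPM in replicates 1, 2 and 3. Apoa4 had 13922, 13106 and 1142 CPM in the same libraries. Replicate 3 was thus low in both genes, although its group label is the same.

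In PWD and B6 wild-type mucosa this spread ran alongside markers of position along the gut, whose part in it was not tested. Gata4, a transcription factor made in the upper small intestine and absent from ileum, had 79.6, 132 and 25.2 CPM in the 3 PWD libraries. The summed level of 7 distal ileum genes (Fabp6, Slc10a2, Fgf15, Osr2, Slc51a, Slc51b and Gpbar1) was 181, 235 and 6209 CPM there. The PWD library with low Fabp1 and Apoa4 was therefore also the one with low Gata4 and high ileal genes. In B6 wild-type mucosa, replicate 1 stood apart in the same manner. Gata4 had 1.21, 64.1 and 78.2 CPM and the distal ileum sum was 2580, 1015 and 407 CPM in B6 replicates 1, 2 and 3. Fabp1 had 2.56, 109 and 188 CPM in these libraries, and Apoa4 had 170.0, 3979 and 2464 CPM. B6 Min mucosa was nearly without Gata4 in every library, with 0, 0.137 and 0.874 CPM. Fabp1 in B6 Min mucosa was likewise close to the detection limit, with 13, 15 and 3 counts. Not every library ran this way. B6xPWD adenoma replicate 1 was at -2.68 log2 units from its group mean in Gata4. It was above the mean in Apob (0.27), Apoa1 (0.27), Apoc3 (0.37) and Cd36 (0.67), and below it in Apoa4, Mttp, Fabp1, Fabp2 and Dgat1.

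Over the 39 tissue libraries, deviations from the group mean in Gata4 and in the members were compared as a description. Pearson's r with Gata4 was 0.91 for Apoa4, 0.83 for Mttp, 0.81 for Apoc3, 0.79 for Dgat1, 0.78 for Fabp2 and 0.75 for Fabp1. It was lower for Apob (0.57), Cd36 (0.54) and Apoa1 (0.38). All genes of a library share its depth and its tissue piece, so these values describe the libraries and carry no test. Creb3l3, a transcription factor that activates Apoa4 in liver and gut, had r between 0.54 and 0.85 with the members. Hnf4g, a nuclear receptor of enterocytes, had r between 0.46 and 0.81, and its relative Hnf4a between -0.45 and 0.53. Among themselves the members had a median r of 0.67 over their 36 pairs, from 0.19 to 0.90.

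**Figure D1:**
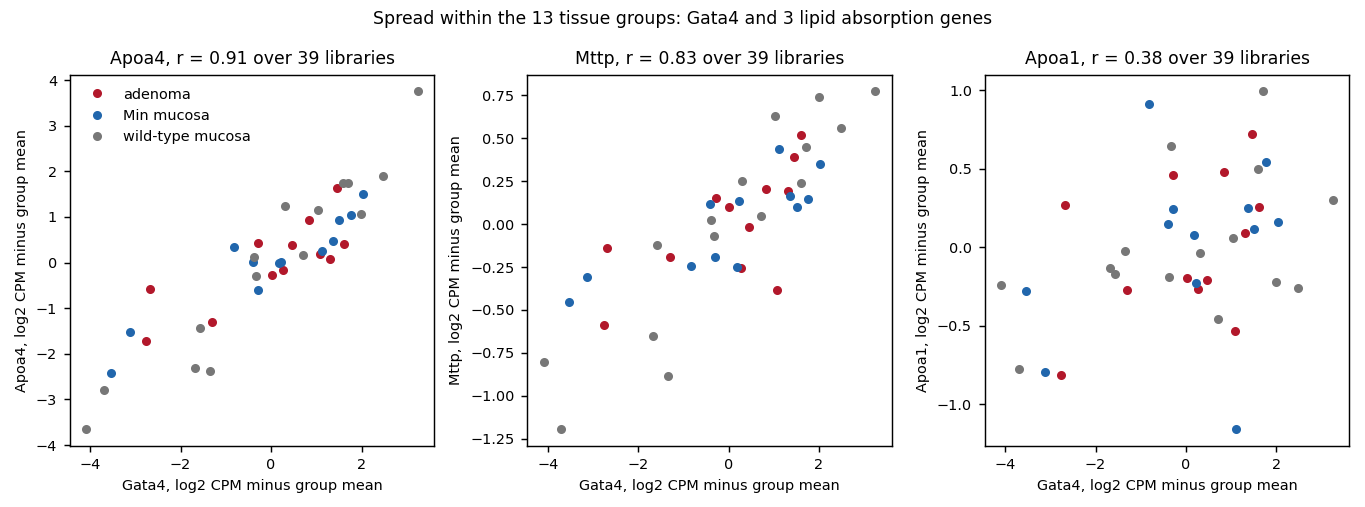
Each point is 1 of 39 tissue libraries, placed by the log2 CPM of Gata4 minus its group mean (horizontal axis) and of Apoa4, Mttp or Apoa1 minus its group mean (vertical axis), coloured by tissue. Points lie close to a rising line for Apoa4 (r = 0.91) and Mttp (r = 0.83) and scatter for Apoa1 (r = 0.38).

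Genes outside the 9 with levels most like the mean of the members over the 39 libraries included Sgpl1 (r = 0.98), Cyp4v3 (0.96), Ephx2 (0.95), Samd8 (0.94), Acsl5 (0.93), Khk (0.93), Slc3a2 (0.93), Smlr1 (0.93) and Cldn15 (0.93). Sgpl1 encodes sphingosine phosphate lyase, Khk encodes an enzyme of fructose breakdown, and Acsl5 encodes an enzyme that activates fatty acids. Taken by member, the nearest gene was Cyp3a13 for Mttp (r = 0.96), Hadh for Dgat1 (0.96), Ephx2 for Apoc3 (0.94), Guca2b for Apoa1 (0.94), Zzef1 for Apob (0.92), Car13 for Fabp2 (0.92), Enpp3 for Fabp1 (0.92), Acot12 for Apoa4 (0.92) and Sgpl1 for Cd36 (0.90). Mttp was itself the second nearest gene to Apob (r = 0.91).

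Per kilobase of exon, which allows levels of different genes to be set side by side, Fabp2 and Apoa1 led in most tissue groups. In B6 wild-type mucosa the mean levels were 3067 CPM per kb for Fabp2, 2576 for Apoa1, 1215 for Apoa4 and 323 for Apob. Fabp1 (180.3), Mttp (173), Apoc3 (91.1), Dgat1 (80.7) and Cd36 (8.61) followed. In B6 adenoma the order began with Apoa1 at 660.2 and Fabp2 at 489 CPM per kb and ended with Cd36 at 1.18. PWD wild-type mucosa had the highest mean level of the 13 tissue groups for all 9 genes, with Fabp2 at 7048, Apoa4 at 5174 and Cd36 at 44.0 CPM per kb. For Fabp2 the lead was small against the spread, as B6xPWD Min mucosa had 6915 (SD 3040) and PWD an SD of 1837. Apoa1 had 2906 in PWD, against an SD of 1677 in B6 wild-type mucosa. The lowest group mean was that of B6 adenoma for Apob, Mttp, Fabp2, Cd36 and Dgat1, and that of C5F1 adenoma for Apoa1 and Apoc3. For Apoa4 it was that of C5F1 wild-type mucosa, and for Fabp1 that of B6 Min mucosa.

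**Figure D2:**
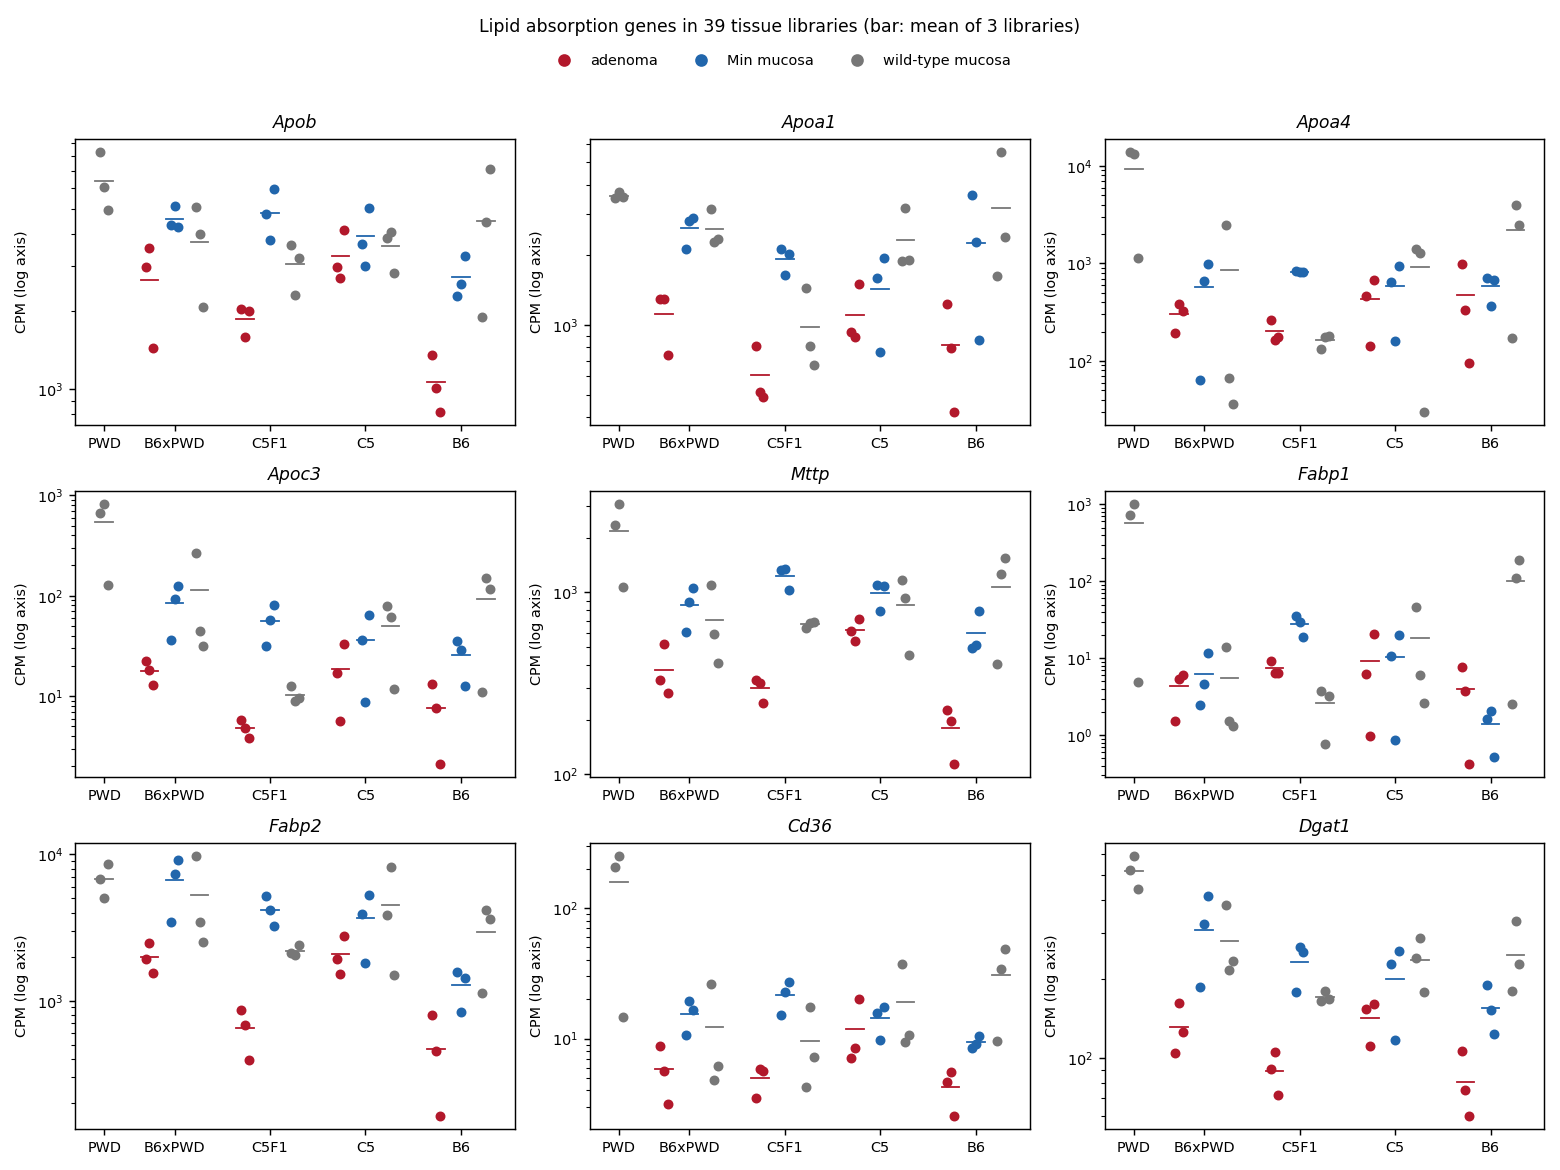
Normalised CPM (log axis) of the 9 genes in the 39 tissue libraries, by background, with 3 libraries per group as points and their mean as a bar, for adenoma, Min mucosa and wild-type mucosa (PWD has wild-type mucosa alone). Adenoma points lie lowest in most panels except Apoa4 and Fabp1, and the PWD points include the highest values of Apob, Apoa4, Apoc3, Mttp, Fabp1, Cd36 and Dgat1.

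Adenoma was set against Min mucosa, which bears on how far tumour tissue keeps this absorptive programme. Averaged over the 4 backgrounds, 7 of the 9 genes were lower in adenoma, and Apoa4 and Fabp1 did not pass the test. Of all 13657 genes tested, 45.2% passed in either direction. The members' median change was -1.18, against 0.01 over all genes. In tissue, fewer enterocytes and less RNA per enterocyte cannot be told apart.

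Among the genes of particle assembly, Mttp had the most marked fall by p. It ranged from 115 to 717 CPM (median 323) in 12 adenoma libraries and from 496 to 1345 CPM (median 960.0) in 12 libraries of Min mucosa. The ranges overlapped across backgrounds but not within any of the 4, and the change was -1.41 ± 0.20 (adjusted p = 9.02e-07). Apob ranged from 815 to 4151 CPM (median 2015) in adenoma and from 2298 to 5950.5 CPM (median 4008) in Min mucosa. Its change was -0.94 ± 0.18 (adjusted p = 8.47e-05).

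Apoa1 ranged from 424 to 1494 CPM (median 848) in adenoma and from 767 to 3624 CPM (median 2064) in Min mucosa, and changed by -1.18 ± 0.22 (adjusted p = 4.67e-05). Apoc3 ranged from 2.13 to 33.1 CPM (median 10.2) in adenoma and from 8.67 to 124 CPM (median 36.5) in Min mucosa. Its change of -2.11 ± 0.43 was the largest of the 9 (adjusted p = 0.000157). Apoa4, which lies near these genes on chromosome 9, had 95.7 to 987 CPM (median 296) in adenoma and 64.4 to 984 CPM (median 690.1) in Min mucosa. These ranges covered each other almost entirely, and the change of -0.92 ± 0.57 did not pass (adjusted p = 0.195).

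Dgat1 ranged from 60.1 to 162 CPM (median 106) in adenoma and from 117 to 416 CPM (median 209) in Min mucosa, and changed by -1.01 ± 0.15 (adjusted p = 1.44e-06). Of the fatty acid carriers, Fabp2 had 164 to 2757 CPM (median 1193) in adenoma and 845 to 9209 CPM (median 3681) in Min mucosa. It changed by -1.68 ± 0.28 (adjusted p = 1.13e-05). Cd36 was scarce in both, with 2.56 to 20.2 CPM (median 5.62) in adenoma and 8.54 to 27.1 CPM (median 15.5) in Min mucosa, and changed by -1.22 ± 0.36 (adjusted p = 0.00566). Fabp1 had 0.427 to 20.6 CPM (median 6.12) in adenoma and 0.524 to 35.7 CPM (median 7.62) in Min mucosa. Its change of -0.24 ± 0.68 did not pass (adjusted p = 0.808). With the 3 backgrounds other than B6 averaged, the same 7 genes were lower, a choice made after the low Gata4 of B6 Min mucosa was seen.

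Same-numbered adenoma and Min mucosa libraries deviated together from their group means, so that the replicate number was also fitted as a block within each background, on these 24 libraries alone. In that paired fit 8 of the 9 genes were lower, and 52.3% of 13444 genes passed. The gene added was Apoa4, with -0.88 ± 0.25 (adjusted p = 0.00813), and Fabp1 stayed outside at -0.28 ± 0.16 (adjusted p = 0.156).

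By background, the members called differed in number, from none in C5 to 7 in C5F1. In C5F1, 7 genes were lower, against 20.5% of all genes passing, and adenoma lay below Min mucosa without overlap for all 9, as for 18.9% of all tested genes. Apoc3 had 5.81, 4.84 and 3.85 CPM in C5F1 adenoma and 31.9, 57.4 and 80.4 CPM in C5F1 Min mucosa, a change of -3.61 ± 0.94 (adjusted p = 0.00547). Fabp2 had 867, 683 and 396 CPM in C5F1 adenoma and 5194, 4165 and 3229 CPM in C5F1 Min mucosa (-2.69 ± 0.58, adjusted p = 0.00111). Every adenoma value of both genes was far below every value of Min mucosa. Mttp (-2.05), Cd36 (-2.11), Apoa1 (-1.66), Dgat1 (-1.38) and Apob (-1.37) were the other called genes. The call of Cd36 was lost in 5 of 6 fits that left out a C5F1 library (the exception was Min mucosa replicate 1), with adjusted p up to 0.0971. In the paired fit all 9 were lower (29.1% of genes passed), Apoa4 by -2.08 ± 0.50 and Fabp1 by -1.91 ± 0.26. C5F1 Min mucosa itself lay above C5F1 wild-type mucosa without overlap for 7 members and for 5.65% of all tested genes. C5F1 adenoma had a higher mean than C5F1 wild-type mucosa for Apoa4 (201 against 164 CPM) and Fabp1 (7.39 against 2.62 CPM). For each other member its mean was lower. Gata4 was also higher in C5F1 Min mucosa than in C5F1 wild-type mucosa, and its part in the result was not tested.

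In B6, 4 genes were lower (26.7% of all genes passed). Adenoma lay below Min mucosa without overlap for 5 members and for 20.5% of all tested genes. Mttp had 226, 197 and 115 CPM in B6 adenoma and 496, 514 and 795 CPM in B6 Min mucosa (-1.75 ± 0.41, adjusted p = 0.00177). Apob had 1355, 1009.7 and 815 CPM in B6 adenoma and 2298, 2561 and 3288 CPM in B6 Min mucosa (-1.36 ± 0.37, adjusted p = 0.00643). Both genes were lower in every adenoma library. Apoa1 (-1.47) and Dgat1 (-0.94) also passed, but 2 members passed without B6 adenoma replicate 3 or without B6 Min mucosa replicate 1. The paired fit called 8 members, 7 lower and Fabp1 higher, with 36.2% of genes passing. Fabp1 had 7.67, 3.80 and 0.427 CPM in B6 adenoma and 1.63, 2.05 and 0.524 CPM in B6 Min mucosa. The groups overlapped, and the paired change was 1.49 ± 0.38 (adjusted p = 0.00579) while the unpaired was 1.67 ± 1.49 (adjusted p = 0.441). Gata4 in the same libraries was 25.4, 22.8 and 1.07 CPM in adenoma and 0, 0.137 and 0.874 CPM in Min mucosa, and its part in the result was not tested.

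In B6xPWD, Mttp (-1.18), Fabp2 (-1.75) and Dgat1 (-1.23) were lower, while 16.4% of all genes passed. Adenoma lay below Min mucosa without overlap for 7 members and for 14.8% of all tested genes. Fabp2 had 1920.5, 2476 and 1537 CPM in B6xPWD adenoma and 3461, 7350.3 and 9209 CPM in B6xPWD Min mucosa (adjusted p = 0.0299). The count fell to 1 without adenoma replicate 1, adenoma replicate 3 or Min mucosa replicate 2, and to 0 without Min mucosa replicate 3. The paired fit called 7 lower, all but Apoa4 and Fabp1 (24.3% of genes passed).

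In C5 no member passed (edgeR), while 2.77% of all genes did. None had an unadjusted p under 0.05, and DESeq2 called 0. Mttp had 614, 544 and 717 CPM in C5 adenoma and 1099, 792 and 1089 CPM in C5 Min mucosa, with a change of -0.67 ± 0.40 (adjusted p = 0.541). It was the 1 member without overlap there, where 9.63% of all tested genes lay lower without overlap. Apob had 2962, 2704 and 4151 CPM in C5 adenoma and 3664, 2996 and 5052 CPM in C5 Min mucosa, which overlapped (-0.25 ± 0.36). The log2 changes of all 9 were below 0, from -1.0 for Apoc3 to -0.24 for Fabp1, and the paired fit called 0 as well (5.45% of genes passed).

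Whether the adenoma effect differed between backgrounds was tested as an interaction with B6. No member passed for C5F1 (0% of all genes), for C5 (0.11%) or for B6xPWD (0.63%). DESeq2 called 0 in each, and the members with an unadjusted p under 0.05 numbered 0 for C5F1, 1 for C5 and 0 for B6xPWD. For Apob the effect in C5 minus that in B6 was 1.10, with a 95% interval from 0.09 to 2.11 (adjusted p = 0.494). In the paired fit Fabp1 passed for C5F1 (-3.40 ± 0.46, adjusted p = 0.0072, 0.305% of genes) and for B6xPWD (-1.94 ± 0.51, adjusted p = 0.0406, 3.85% of genes). For C5, 0 members passed against 3% of genes, with Fabp1 at -1.75 ± 0.48 (adjusted p = 0.0602). These comparisons share the B6 libraries, in which Fabp1 rests on 3 to 15 counts per library of Min mucosa.

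**Figure D3:**
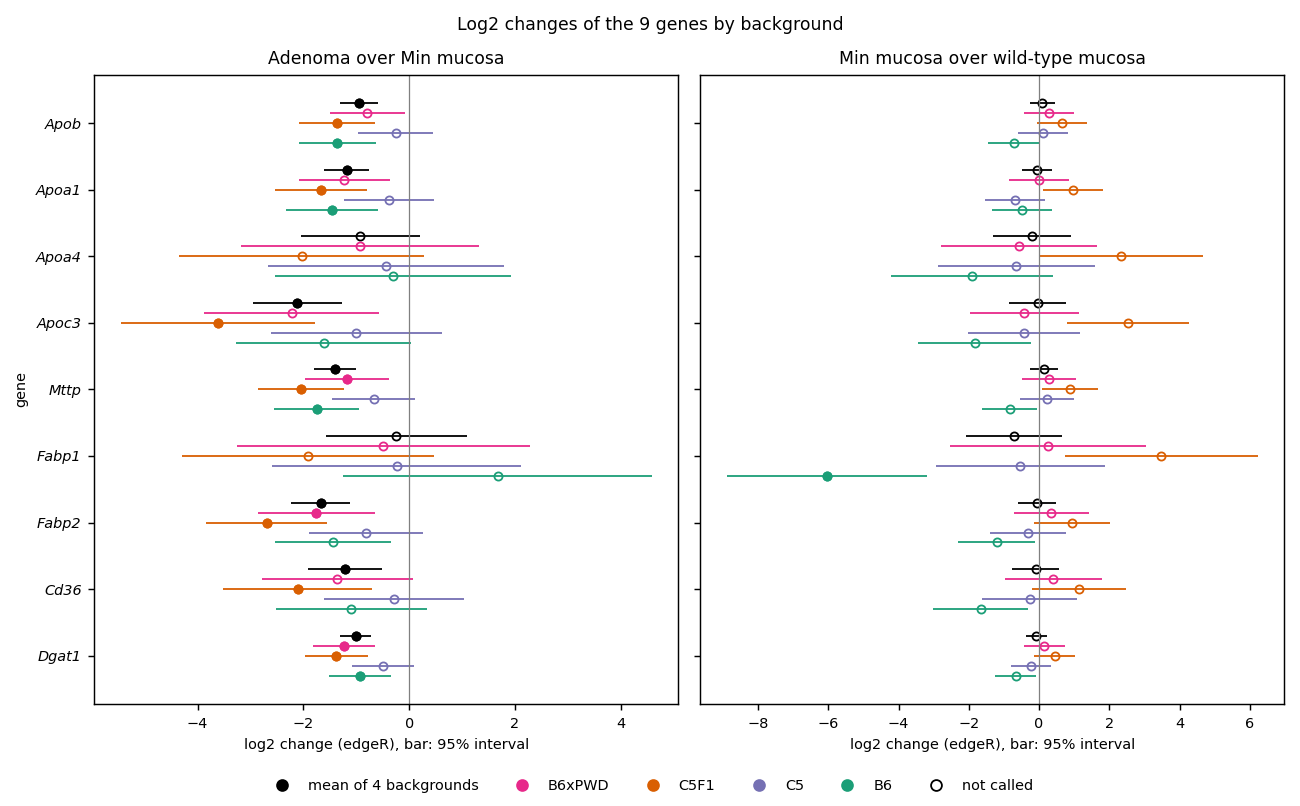
Log2 change with its 95% interval for the 9 genes, as the mean of 4 backgrounds and by background, for adenoma over Min mucosa (left) and Min mucosa over wild-type mucosa (right), with filled points where the adjusted p was under 0.05. Left, the means of 7 genes are filled and below 0, and right, Fabp1 in B6 at -6.04 is the filled point.

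Of 53 other tested genes of fat absorption, 33 were lower in adenoma, 5 were higher and 15 did not pass, while 21.5% of all genes were lower. Of 10 genes of fat uptake and activation, 6 were lower and 3 higher (median change -1.0). Scarb1, a lipoprotein and cholesterol receptor, rose by 1.60 and Acsl3 by 1.55, and Slc27a2 was at -1.64, Abcg8 at -1.26 and the cholesterol transporter Npc1l1 at -1.22. Of 13 tested genes of triglyceride synthesis and lipid droplets, 8 were lower and 0 higher (median -0.69), led by Soat2 (-1.28) and Gpat3 (-1.03), with Mogat2, the monoacylglycerol acyltransferase of enterocytes, at -0.83. Of 15 genes of chylomicron assembly and export, 10 were lower and 1 higher (median -0.37). A1cf (-1.07) and Pla2g12b (-0.98) fell most. P4hb, the partner subunit of Mttp, was at -0.37 and Apobec1, the Apob mRNA editing enzyme, at -0.31, both passing. Of 15 regulators, 9 were lower and 1 higher (median -0.62). Hnf4g (-1.43) and Nr1h4 (-0.94) fell most, Hnf4a was at -0.62 and Pparg rose by 0.83. Creb3l3 (-0.52) and Gata4 (0.98) did not pass.

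Markers of cell type moved in the same comparison. Of 12 enterocyte markers, 11 were lower in adenoma (median -1.23), and their summed level ranged from 2097 to 7904 CPM in adenoma and from 6908 to 15149 CPM in Min mucosa. Of 10 crypt and cycling genes, 7 were higher and 1 lower, with sums from 647 to 915 CPM in adenoma and from 483 to 1076 CPM in Min mucosa. All 8 smooth muscle genes and 5 of 10 macrophage genes were lower, 3 of 6 distal ileum genes were lower, and of 7 proximal genes 2 were higher and 1 lower. Fat genes summed to 16.8 to 152 CPM in adenoma and 26.0 to 299.8 CPM in Min mucosa, and 2 of 8 were lower although their median change was above 0. Their part in the result was not tested. Hepatocyte genes, of which 2 of 8 could be tested, were higher in adenoma, and their sum was at most 62.7 CPM in tissue.

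Uninvolved Min mucosa against wild-type mucosa tests the Min allele in tissue without a tumour. As a mean of 4 backgrounds no member passed (edgeR), and 0.00732% of all genes did. None had an unadjusted p under 0.05, and DESeq2 called 0. Mttp, for example, changed by 0.14 (95% interval -0.25 to 0.53) and Apob by 0.09 (-0.27 to 0.44). None of the 10 uptake genes, 13 triglyceride genes, 15 assembly genes or 15 regulators passed either.

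The log2 changes in B6 and in C5F1 had opposite signs, while the members' median change was -0.31 in C5 and 0.26 in B6xPWD. In B6 all 9 log2 changes were below 0 and Fabp1 passed, against 0.52% of all genes. Fabp1 had 1.63, 2.05 and 0.524 CPM in B6 Min mucosa and 2.56, 109 and 188 CPM in B6 wild-type mucosa, without overlap (-6.04 ± 1.45, adjusted p = 0.0448). The call was lost with the replicate block (adjusted p = 0.0552), with the compared groups alone (0.214) and without any B6 library but wild-type mucosa replicate 1 (up to 0.205). In C5F1 all 9 changes were above 0. Apoc3 had 31.9, 57.4 and 80.4 CPM in C5F1 Min mucosa and 12.7, 8.95 and 9.50 CPM in C5F1 wild-type mucosa (2.52 ± 0.88, adjusted p = 0.919). Apoa4 had 833, 823 and 810.4 CPM in C5F1 Min mucosa and 133, 177 and 182 CPM in C5F1 wild-type mucosa (2.33 ± 1.19, adjusted p = 0.978). Min mucosa lay above wild-type mucosa without overlap for 7 of the 9 members and for 5.65% of all tested genes, and no member passed (0% of all genes). In C5F1, 4 members and 687 of all 13657 genes tested had an unadjusted p under 0.05, and DESeq2 called 0 members. In C5 and in B6xPWD 0 members passed (0% of genes in each), with 0 under an unadjusted 0.05 and 0 by DESeq2.

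The difference between these effects was tested after they were seen to oppose each other. The Min effect in C5F1 minus that in B6 was above 0 for all 9 members. Each had an unadjusted p under 0.05, as had 1519 of all 13657 genes tested, in either direction. Fabp1 alone passed, at 9.53 ± 2.01 (adjusted p = 0.0306, 0.359% of genes), and DESeq2 called 2. Fabp1 had 35.7, 29.3 and 18.7 CPM in C5F1 Min mucosa and 3.80, 0.778 and 3.27 CPM in C5F1 wild-type mucosa. Apoc3 differed by 4.36 ± 1.21 (adjusted p = 0.105), Apoa4 by 4.24 ± 1.67, Cd36 by 2.80 ± 0.97 and Fabp2 by 2.15 ± 0.78. The call of Fabp1 was lost without any B6 library other than wild-type mucosa replicate 1, without C5F1 Min mucosa replicate 3 and without each C5F1 wild-type library, with adjusted p up to 0.133. Markers of gut position ran the same way as the members. Gata4 had 38.0, 58.8 and 57.2 CPM in C5F1 Min mucosa and 6.33, 6.10 and 13.3 CPM in C5F1 wild-type mucosa, against 0, 0.137 and 0.874 CPM in B6 Min mucosa and 1.21, 64.1 and 78.2 CPM in B6 wild-type mucosa. The distal ileum sum was 1330.1 to 1651 CPM in C5F1 Min mucosa and 3315 to 5516 CPM in C5F1 wild-type mucosa, against at least 2617 CPM in every B6 library of Min mucosa and 407 to 2580 CPM in B6 wild-type mucosa. Their part in the result was not tested.

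Among the 4 comparisons of wild-type mucosa with B6, that of PWD called the most members. Against B6, 3 members were higher in PWD, where 18.7% of all genes passed. Cd36 had 208, 251 and 14.6 CPM in PWD and 9.65, 34.4 and 48.7 CPM in B6, a change of 2.42 ± 0.66 (adjusted p = 0.00926). Apoc3 had 664, 819 and 128 CPM in PWD and 11.0, 149 and 117 CPM in B6 (2.55 ± 0.83, adjusted p = 0.0281). Dgat1 had 519, 589 and 441 CPM in PWD and 181, 332 and 227 CPM in B6 (1.07 ± 0.30, adjusted p = 0.011). Dgat1 was higher in every PWD library, and the other 2 genes overlapped through PWD replicate 3. Apoa4 (2.09 ± 1.18, adjusted p = 0.227), Fabp1 (2.58 ± 1.11, adjusted p = 0.103) and Mttp (1.02 ± 0.40, adjusted p = 0.0744) did not pass. Apoa1 did not pass either, with 3499, 3739 and 3539 CPM in PWD and 1625, 5536 and 2391 CPM in B6 (0.17, 95% interval -0.68 to 1.02).

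The PWD count rested on few libraries. It was 5 without PWD replicate 3, the library with ileal genes at 6209 CPM, and 0 without PWD replicate 2, without B6 replicate 1, or with the PWD and B6 groups fitted alone. Of 12 enterocyte markers 4 were higher in PWD, with sums of 21798, 23565 and 17287 CPM in PWD and 6767, 9634 and 14242 CPM in B6. Proximal genes summed to 5974, 8520.4 and 2676 CPM in PWD and 1133, 2710.3 and 2095 CPM in B6, and 2 of 7 were higher. Macrophage genes, some of which are made by the same cells as Cd36, summed to 441 to 683 CPM in PWD and 183 to 251 CPM in B6, and 2 of 10 were higher. Of 10 endothelial genes 5 were higher, with sums of 125 to 174 CPM in PWD and 81.4 to 107 CPM in B6. Their part in the result was not tested.

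Some other genes of the pathway were higher in PWD, and most did not pass. Of 10 uptake genes 4 were higher, among them Slc27a2 at 2.83 and Scarb1 at 1.53, and 1, Got2, was lower. Of 13 triglyceride genes 5 were higher and 1 lower, and Mogat2 was at 0.09 without passing. Of 15 assembly genes 3 were higher, Apobec1 by 0.72 with Mia2 and Apoa5, and 0 were lower. Mia2, Apoa5 and Got2 are named after their values were seen. Of 15 regulators 3 were higher and 2 lower, with Hnf4g at 0.83 and Hnf4a at -0.57.

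The other backgrounds were set against the same B6 wild-type libraries, so these comparisons share their controls. In B6xPWD 1 member, Fabp1, was lower (9.6% of genes passed). It had 13.8, 1.54 and 1.32 CPM in B6xPWD and 2.56, 109 and 188 CPM in B6, which overlapped (-4.30 ± 1.33, adjusted p = 0.0371). Without B6 replicate 2 or 3 or B6xPWD replicate 2 or 3 that call was lost, as it was with the 2 groups fitted alone, and without B6xPWD replicate 1 the count was 2. In C5F1 0 members passed (0.022% of genes) and DESeq2 called 3. An unadjusted p under 0.05 was held by 5 members and by 1566 of all 13657 genes tested. The count of members passing in C5F1 was 3 without B6 replicate 1 and 1 without B6 replicate 3. In C5 0 members passed (1.47% of genes) and DESeq2 called 0. An unadjusted p under 0.05 was held by 1 member and by 2175 of all 13657 genes tested.

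Over adenoma, Min mucosa and wild-type mucosa together, 3 members were higher in C5 than in B6, while 18.6% of all genes passed. Fabp2 differed by 1.42 ± 0.32 (adjusted p = 0.00309), Mttp by 0.73 ± 0.23 (adjusted p = 0.0272) and Apob by 0.61 ± 0.21 (adjusted p = 0.0417). In Min mucosa, Fabp2 had 3901, 1799 and 5247 CPM in C5 and 1569, 845 and 1421 CPM in B6, without overlap. Fabp2 was called in all 18 fits that left out a library, and in 8 of them it was the only member called. The call of Apob was lost in 11 of these fits and that of Mttp in 8. Apob also lost its call with no filter on low counts (edgeR, adjusted p = 0.0517) and with the compared groups alone (edgeR, adjusted p = 0.056). Cd36, which C5 mice carry from PWD, differed by 0.42 (95% interval -0.37 to 1.20, adjusted p = 0.501). Gata4 in Min mucosa had 56.2, 2.20 and 73.9 CPM in C5 and 0, 0.137 and 0.874 CPM in B6, and its part in the result was not tested.

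AZA raised all 9 members in organoids when C5 and B6 were averaged, where 28.5% of all genes passed. The members' median change was 2.03, against 0.04 over all genes. Organoid levels in this comparison are CPM on the scale of the 8 organoid libraries. Apoa1 had the largest rise. It had 1587 and 1478 CPM in AZA-treated C5 organoids and 171 and 68.7 CPM in C5 controls, and 2171 and 1347 CPM in AZA-treated B6 organoids and 140.4 and 94.6 CPM in B6 controls (3.79 ± 0.25, adjusted p = 7.01e-08). Every AZA library was above every control library of Apoa1 by a wide margin. Apoa4 had 10397 and 5539 CPM with AZA and 1692 and 785 CPM as control in C5, and 7376 and 7730.3 CPM with AZA and 1386 and 995 CPM as control in B6 (2.68 ± 0.23, adjusted p = 7.76e-07). Apoc3 had 209 and 36.7 CPM with AZA and 27.7 and 6.98 CPM as control in C5, and 96.9 and 129 CPM with AZA and 14.1 and 12.6 CPM as control in B6 (2.97 ± 0.45, adjusted p = 0.000185). The 3 members on chromosome 9, Apoa1, Apoa4 and Apoc3, thus separated in both backgrounds, with a wide spread of Apoc3 in C5. Without overlap, AZA lay above control for 8 members and 27.7% of all tested genes in C5, and for 9 members and 32% of all tested genes in B6.

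The genes of particle assembly rose less. Apob had 3359.6 and 3172 CPM with AZA and 950.3 and 893 CPM as control in C5, and 3142 and 2697 CPM with AZA and 847 and 756 CPM as control in B6 (1.84 ± 0.11, adjusted p = 1.65e-08). Mttp had 2654 and 2102 CPM with AZA and 1315 and 783 CPM as control in C5, and 2432 and 2239 CPM with AZA and 1081 and 1082 CPM as control in B6 (1.15 ± 0.15, adjusted p = 3.59e-05). Neither gene overlapped between AZA and control. Dgat1 had 75.0 and 68.8 CPM with AZA and 57.5 and 43.5 CPM as control in C5, and 71.4 and 61.5 CPM with AZA and 48.4 and 44.9 CPM as control in B6. Its rise was the smallest, 0.51 ± 0.16 (adjusted p = 0.0273), and 5 of 8 fits without a library lost that call, those without B6 replicate 1 of either arm, B6 control replicate 2, C5 AZA replicate 3 or C5 control replicate 4.

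Fabp2 had 4492 and 3920.0 CPM with AZA and 1506 and 1086 CPM as control in C5, and 5497 and 3704 CPM with AZA and 973 and 828 CPM as control in B6 (2.03 ± 0.14, adjusted p = 1.36e-07). Cd36 had 92.1 and 60.4 CPM with AZA and 21 and 3.38 CPM as control in C5, and 50.4 and 27.6 CPM with AZA and 14.5 and 5.81 CPM as control in B6 (2.31 ± 0.43, adjusted p = 0.000988). Both separated from control in each background. Fabp1 had 3809 and 2088 CPM with AZA and 2231 and 629.9 CPM as control in C5, which overlapped, and 3235 and 3125 CPM with AZA and 1888 and 1432 CPM as control in B6. It rose by 0.99 ± 0.28 (adjusted p = 0.0158), a call that DESeq2 did not make (adjusted p = 0.0884).

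**Figure D4:**
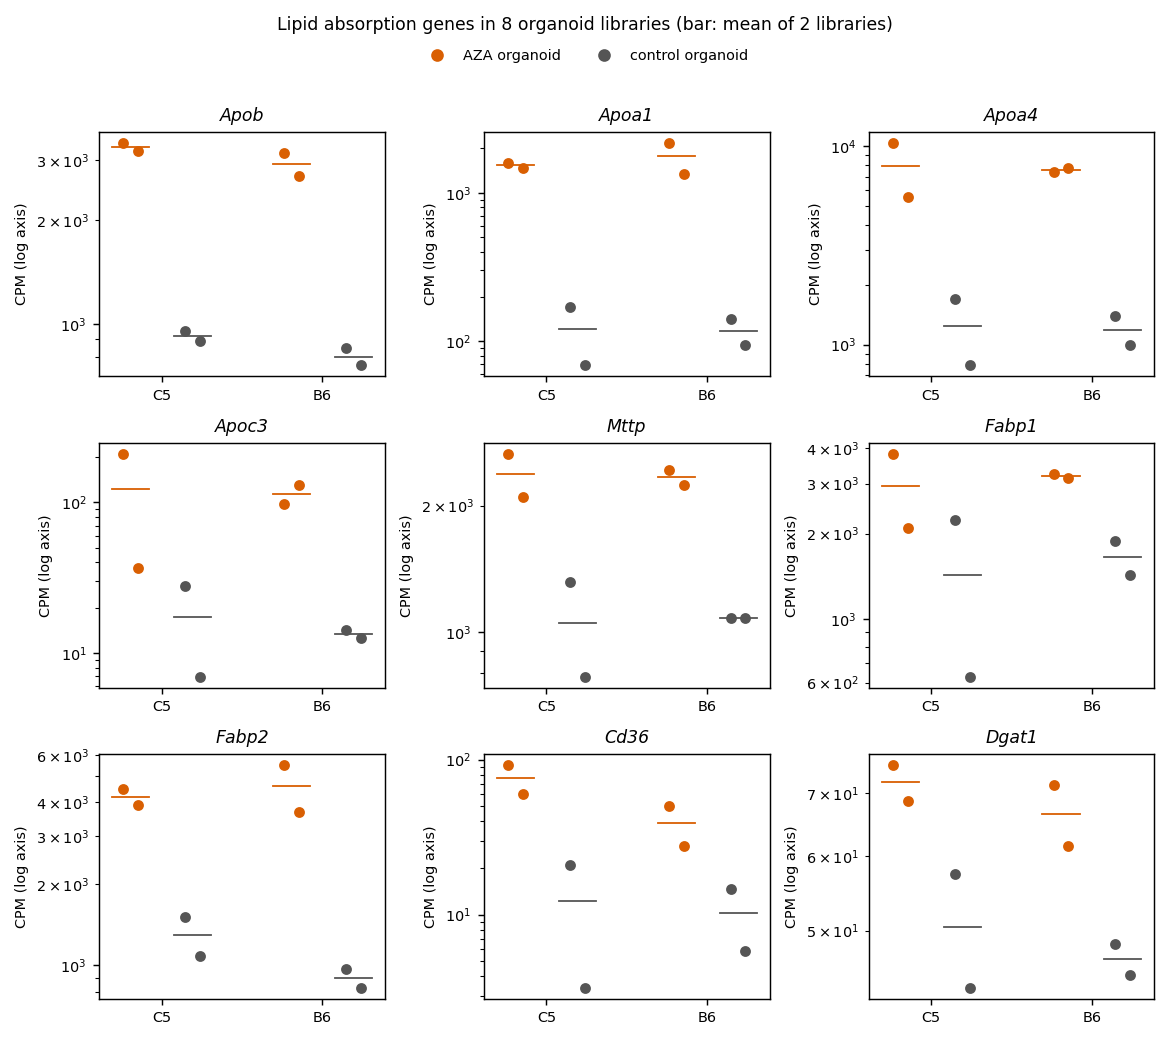
Normalised CPM (log axis) of the 9 genes in the 8 organoid libraries, with 2 libraries per group as points and their mean as a bar, for AZA-treated and control organoids of C5 and B6. AZA points lie above control points in each background for all genes but Fabp1 in C5, where 2088 CPM with AZA lies below 2231 CPM in a control.

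Each background alone gave 7 called members, all higher, with 14.6% of all genes passing in C5 and 16.1% in B6. Fabp1 and Dgat1 were the ones not called in either. The call of Apoc3 in C5 was lost with the compared groups alone (edgeR, adjusted p = 0.0719). Its change there was 2.86, and 1.12 without C5 AZA replicate 3. DESeq2 did not call Cd36 in B6 (adjusted p = 0.172). Its change there was 1.94, and 1.43 without B6 AZA replicate 1. The AZA effect in C5 minus that in B6 passed for 0 members (edgeR, 0% of all genes), 1 had an unadjusted p under 0.05 and DESeq2 called 0. That member was Fabp2, at -0.65 (95% interval -1.20 to -0.11, adjusted p = 0.999), and for Apob the interval ran from -0.44 to 0.36. Between C5 and B6 control organoids 0 members passed (0.209% of genes), 1 had an unadjusted p under 0.05 and DESeq2 called 0. Without C5 control replicate 3, 1 member passed in both of these comparisons, and without C5 control replicate 4, 1 passed between the controls. Organoid replicate numbers differ between C5 (3 and 4) and B6 (1 and 2).

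The changes of the genes whose promoters are printed above are set here beside their CG pairs. Apoa1 with 4 pairs changed by 3.79, Apoa4 with 1 pair by 2.68, Apob with 9 pairs by 1.84 and Fabp1 with 3 pairs by 0.99. Of the others with an entry, Cd36 with 3 pairs changed by 2.31, Fabp2 with 3 pairs by 2.03 and Mttp with 27 pairs by 1.15. Methylation was not measured in the data used here.

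Most tested genes of uptake, triglyceride synthesis and assembly were higher under AZA, and most regulators did not pass. Of 10 uptake genes 8 were higher and 2 lower (median 1.15), with Npc1l1 at 1.23 and Scarb1 at 1.30, and Acsl3 lower at -1.01. Of 13 triglyceride genes 10 were higher and 0 lower (median 1.01), Mogat2 by 2.04. Of 14 assembly genes 11 were higher and 0 lower (median 0.84) with Apobec1 at 2.09, Pla2g12b at 1.46, A1cf at 0.95 and P4hb at 0.58. Of 14 regulators 4 were higher and 2 lower (median 0.00). Creb3l3 rose by 2.19 and Hnf4g by 1.11, Gata4 fell by 0.54, and Hnf4a was at -0.40 (adjusted p = 0.0501).

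Markers of differentiation moved with these genes. All 12 enterocyte markers were higher with AZA (median 2.05), and their sum was 14587 to 18291 CPM with AZA and 2666 to 5899.6 CPM in controls. Of 10 crypt and cycling genes 8 were lower and 1 higher, with sums of 1240.0 to 2196 CPM with AZA and 2887 to 3718 CPM in controls. Of 6 distal ileum genes 4 were higher, their sum staying at 67.0 to 101 CPM with AZA and 10.6 to 19.5 CPM in controls. Macrophage genes summed to 30.3 to 39.1 CPM with AZA and 3.15 to 9.75 CPM in controls, 2 of 5 being higher, with C1qb and C1qc at 0 in every AZA library of B6 and of C5. Fat genes summed to 15.6 to 37.6 CPM with AZA and 4.75 to 10.2 CPM in controls. Their part in the result was not tested.

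Control organoids and Min mucosa share the APC min label and were compared on the scale of all 47 libraries, within C5 and within B6. Fabp1 was far higher in organoids, and Apob, Apoa1, Fabp2 and Dgat1 were lower, in both backgrounds. The 5 called members stand against 62.7% of 15202 genes in C5 and 64.5% in B6, with medians over all genes of -0.07 in C5 and -0.25 in B6. Fabp1 had 1314 and 366 CPM in C5 organoids and 11.8, 0.948 and 22.3 CPM in C5 Min mucosa (6.17 ± 1.31, adjusted p = 0.000106). In B6 it had 1078 and 843 CPM in organoids and 1.86, 2.32 and 0.581 CPM in Min mucosa (9.18 ± 1.54, adjusted p = 3.09e-06). Per kilobase of exon, Fabp1 was the leading member in control organoids, at 1519 CPM per kb in C5 and 1737 in B6, and among the lowest in Min mucosa, at 21.1 in C5 and 2.87 in B6.

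Apoa1 had 101 and 39.9 CPM in C5 organoids and 1767, 851 and 2154 CPM in C5 Min mucosa (-4.50 ± 0.60, adjusted p = 4.95e-08). In B6 it had 80.2 and 55.8 CPM in organoids and 4136, 2577 and 959 CPM in Min mucosa (-5.23 ± 0.62, adjusted p = 4.57e-09). Apoa1 in organoids was thus at a small part of its tissue level. Dgat1 changed by -2.92 in C5 and -2.70 in B6, Apob by -3.01 in C5 and -2.72 in B6 and Fabp2 by -2.42 in C5 and -1.47 in B6. Apoa4 did not pass, with 997 and 456 CPM in C5 organoids and 710.5, 176 and 1053 CPM in C5 Min mucosa (0.17, 95% interval -2.16 to 2.50). Mttp (-0.85 in C5, -0.11 in B6), Apoc3 (-2.02 in C5, -1.91 in B6) and Cd36 (-1.19 in C5, -0.84 in B6) did not pass. The Fabp2 call in B6 was lost in 4 of 5 fits without a library, all but that without Min mucosa replicate 2, with adjusted p up to 0.15.

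**Figure D5:**
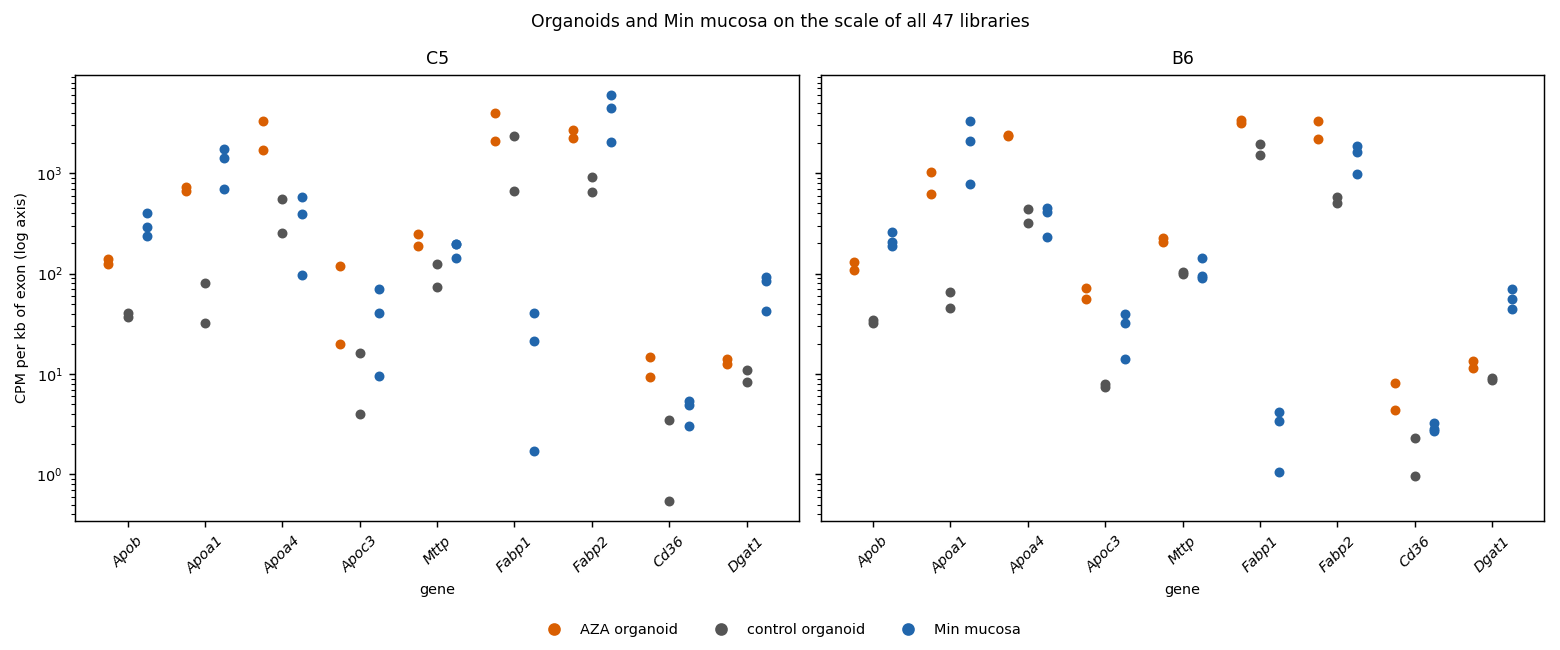
CPM per kb of exon (log axis, scale of all 47 libraries) of the 9 genes in AZA-treated organoids, control organoids and Min mucosa of C5 and B6, with a point per library. Control organoids lie far above Min mucosa for Fabp1 and far below it for Apoa1, and AZA-treated organoids lie above controls in each gene but Fabp1 in C5, where the groups overlap.

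Control organoids held Gata4 and little of the ileal genes. Gata4 had 44.4 and 47.7 CPM in C5 control organoids and 62.7, 2.44 and 82.1 CPM in C5 Min mucosa, and 60.3 and 49.0 CPM in B6 control organoids and 0, 0.155 and 0.969 CPM in B6 Min mucosa. The distal ileum sum was 6.15 to 11.5 CPM in C5 and 8.55 to 10.4 CPM in B6 control organoids, against 2126 to 3775 CPM in C5 and 2958 to 4339.6 CPM in B6 Min mucosa. All 8 smooth muscle and all 10 endothelial genes were lower in organoids in both backgrounds, and 9 of 12 enterocyte markers were lower in each. Their part in the result was not tested. Of the pathway lists, 2 of 10 uptake genes were higher and 3 lower in C5 and 3 and 3 in B6. Of 13 triglyceride genes 3 were higher and 9 lower in C5, and 2 and 7 in B6, with Mogat2 at -2.90 in C5 and -2.37 in B6. Of 15 assembly genes 3 were higher and 7 lower in each background, and of 15 regulators 2 were higher and 6 lower in C5, and 3 and 4 in B6. Scarb1 was at 2.40 in C5 and 2.59 in B6, Apobec1 at -0.82 in C5 and -1.36 in B6, and Hnf4a at -1.11 in C5 and -1.16 in B6.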

How the data were processed

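RNA was measured in 39 tissue and 8 organoid libraries as raw counts per gene symbol, which the authors deposited in a table of 24062 symbols and 5 summary categories. Reads were single-end, per the labels' protocols. Per the submitters' processing notes, BWA and HTSeq were used with mm10. Their versions, the annotation and the strand setting are not given in the sources used here. The summary categories, 40.7 to 53.9% of a tissue library and 46.4 to 63.5% of an organoid library, were left out.

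Groups came from the labels. Counts were fitted with edgeR 4.0.16 (R 4.3.3) by TMM and the quasi-likelihood test in 3 sets: tissue (13657 genes after filterByExpr with a minimum count of 10 and total of 15), organoids (13395 genes) and all 47 libraries (15202 genes). Adjustment was by Benjamini-Hochberg over all genes of a set. Log2 CPM used a prior count of 2, and 95% intervals are 1.96 standard errors. DESeq2 1.42.0, other factors, no filter, fewer groups and left-out libraries were alternatives. The mean adenoma and mean AZA comparisons were also run on simulated data, with the same dispersion for every gene and no pairing. Fits by background, interactions and paired fits were not simulated.

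Same-numbered adenoma and Min mucosa libraries had correlated deviations in 12 of 12 pairs (r from 0.11 to 0.45), a pairing found in the data. No 2 libraries of a group differed by less than sampling noise. The members and lists were chosen with earlier results of these data known. The text names all 9 members, and of each pathway list the 2 genes that rose most and the 2 that fell most in the mean adenoma comparison, plus Hnf4a, Hnf4g, Creb3l3, Gata4, Mogat2, P4hb, Apobec1 and Npc1l1. It also names the 10 genes most like the members' mean and those nearest to a member. Some genes under this rule are not reported here.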

Additional observations from a re-analysis of the deposited data

Results flagged for a closer look

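Fabp1 gave the 3 results in which an effect differed between backgrounds by a test of the difference. The Min effect in C5F1 minus that in B6 was 9.53 for Fabp1 (log2, edgeR, adjusted p = 0.0306). Fabp1 had 35.7, 29.3 and 18.7 CPM in C5F1 Min mucosa and 3.80, 0.778 and 3.27 CPM in C5F1 wild-type mucosa. It had 1.63, 2.05 and 0.524 CPM in B6 Min mucosa and 2.56, 109 and 188 CPM in B6 wild-type mucosa. Gata4 ran the same way in both, and its part in the result was not tested.

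In the paired fit, the adenoma effect on Fabp1 was -3.40 in C5F1 relative to B6 (adjusted p = 0.0072) and -1.94 in B6xPWD relative to B6 (adjusted p = 0.0406). Both rest on B6 Min mucosa, where the 3 libraries hold 13, 15 and 3 counts of Fabp1 and Gata4 is at most 0.874 CPM. Groups of 2 or 3 libraries allow no test for a library that lies far from its group.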

How the results depend on the processing

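Of 389 recomputed counts of called members, 335 stayed within 1.5 times the reported count and 54 did not. Of 932 recomputed changes of called members 844 kept their call, 88 lost it and 0 reversed. The cause was not tested where a count moved. With the compared groups alone, the count was 7 for adenoma in B6, 0 for Min mucosa in B6, 3 for Min mucosa in C5F1, 0 for B6xPWD against B6 and 0 for PWD against B6. DESeq2 gave 3 for C5F1 against B6 and 2 for the Min effect. A replicate block over all tissue gave 0 for Min mucosa in B6. With the block within background, the paired count was 8 for adenoma in B6, 7 in B6xPWD, 1 for the adenoma effect of C5F1 and 1 for that of B6xPWD, and it moved no other count by over 1.5 times. Over all genes, same-numbered organoid libraries showed no shared deviation (r from -0.01 to -0.00029). With 2 libraries per group this cannot settle whether the numbers pair them. Every member was higher in C5 replicate 3 than in C5 replicate 4, both in controls and with AZA, while B6 replicates were mixed. With the replicate number as a block, 8 members were called for AZA in C5 and 8 in B6. Same-numbered wild-type mucosa and adenoma libraries had r over 0.1 in 5 of 12 pairs (median 0.07). For wild-type and Min mucosa it was 4 of 12 pairs (median 0.01). Differently numbered pairs had r over 0.1 in 5 of 24 with adenoma and 7 of 24 with Min mucosa, so no pairing of wild-type numbers was seen.

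Leaving out libraries in turn, counts ran from 2 to 5 for adenoma in B6, 0 to 3 in B6xPWD, 0 to 1 for Min mucosa in B6, 0 to 4 for the Min effect (4 without B6 wild-type mucosa replicate 1), 0 to 3 for C5F1 against B6, 0 to 2 for B6xPWD against B6, 0 to 5 for PWD against B6, 1 to 3 for C5 against B6 over 3 tissues, 0 to 1 for the AZA effect and 0 to 1 between control organoids. Depth limits Fabp1, Cd36 and Apoc3 most: Fabp1 had 2 counts in B6 adenoma replicate 3.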
